A study of Homo sapiens with 4 samples.

Results

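The genes UBASH3B, UHRF1 and PCLO were chosen by the length of H3K27ac peaks in REH cells, since peaks at the top of the REH list by length lie in them. Their windows, the gene body with 10 kb added on each side, held 30 of 44626 REH peaks and 32 of 74504 peaks of 697 cells. Both are cell lines of B-cell precursor acute lymphoblastic leukemia (BCP-ALL). REH harbors the fusion gene ETV6/RUNX1 and has a deletion of the other ETV6 allele, and 697 lacks this fusion. The cells were untreated cultures in the same medium, each with 1 H3K27ac ChIP-seq library and 1 input library, so every difference between the cell lines is a difference between 2 libraries and has no replicate check. After removal of duplicate tags, 65241657 ChIP tags remained in REH and 68911420 in 697. Peak coordinates are on hg19. The gene ends on hg19 are known to 1 kb, which is also the precision of every distance from a 5′ end.

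Acetylation of histone H3 at lysine 27 marks active promoters and enhancers, and long unbroken stretches of it, often called broad domains, are commonly found at highly transcribed genes and at dense groups of enhancers. The genes differ in function and form no common pathway. UBASH3B encodes STS-1, a phosphatase that removes phosphate from tyrosine kinases such as SYK and ZAP70 and so dampens signaling from antigen receptors. UHRF1 encodes a nuclear protein that recognizes hemimethylated DNA at replication forks and brings in the maintenance DNA methyltransferase DNMT1. PCLO encodes piccolo, a very large scaffold protein of the presynaptic active zone in neurons.

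The sequences before the transcript starts are shown first, because the genes differed in whether a long REH peak lay at the start. The sequences are the 250 bases before the transcript start in RefSeq on GRCh38.p14, written in the direction of transcription, with every CpG dinucleotide in capitals. They lie at chr11:122655472-122655721 on the plus strand for UBASH3B, at chr19:4909251-4909500 on the plus strand for UHRF1 and at chr7:83162885-83163134 on the minus strand for PCLO. UHRF1 has 3 starts in this table, of which the one that matches the representative transcript (MANE Select) is shown. It lies 6.42 kb inside the gene from the 5′ end used for the distances given here.
UBASH3B: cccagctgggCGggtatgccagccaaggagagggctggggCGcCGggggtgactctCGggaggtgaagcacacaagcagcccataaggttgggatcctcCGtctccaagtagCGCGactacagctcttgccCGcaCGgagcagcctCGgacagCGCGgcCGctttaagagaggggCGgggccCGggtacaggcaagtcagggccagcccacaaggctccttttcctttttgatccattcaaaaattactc
UHRF1: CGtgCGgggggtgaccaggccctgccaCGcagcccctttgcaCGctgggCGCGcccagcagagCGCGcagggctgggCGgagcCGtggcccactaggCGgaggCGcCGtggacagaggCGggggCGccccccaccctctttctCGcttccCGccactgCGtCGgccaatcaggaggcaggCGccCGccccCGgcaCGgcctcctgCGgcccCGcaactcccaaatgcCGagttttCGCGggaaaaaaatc
PCLO: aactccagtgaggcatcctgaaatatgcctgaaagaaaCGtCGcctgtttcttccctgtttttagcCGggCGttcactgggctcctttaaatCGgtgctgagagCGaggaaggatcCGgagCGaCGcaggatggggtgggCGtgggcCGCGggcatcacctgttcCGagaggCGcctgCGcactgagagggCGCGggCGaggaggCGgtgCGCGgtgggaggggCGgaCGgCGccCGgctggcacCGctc
The UBASH3B sequence held 15 CpG, the UHRF1 sequence 28 and the PCLO sequence 26, against a median of 11 over the 35114 RefSeq sequences of this length. As many CpG or more were found in 42.9% of all these sequences for UBASH3B, 15.9% for UHRF1 and 19.6% for PCLO. The sequences of the UHRF1 starts 643 and 866 bp further on, not shown, held more, 32 and 41 CpG, with shares of 9.52% and 1.73%. The hexamer TGTGGT, the core that RUNX proteins bind, was searched on both strands and was found in none of the 3 sequences shown and in 11.0% of all. The E-box CAGCTG, which reads the same on both strands, was found once, in the UBASH3B sequence, and in 14.0% of all. These matches describe letters in a short window and not binding sites.

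By the measure that chose the genes, the longest REH peak in UBASH3B had rank 1 with 43840 bp, that in UHRF1 had rank 2 with 41329 bp and that in PCLO had rank 4 with 36872 bp. Rank 3, a peak of 40533 bp on chromosome 2 from 47934794 to 47975326, lay outside these genes. The next longest was a peak of 31461 bp on chromosome 21, also outside. The REH list held 262 peaks of 10 kb or more and 31 of 20 kb or more, and its median length was 1060 bp. The UBASH3B window also held the peak of rank 10, with 24218 bp, and the PCLO window the peak of rank 63, with 16144 bp. A further peak at UBASH3B had 9768 bp and rank 281, and the other REH peaks in the windows were 190 to 2904 bp long. The ranks depend on how peaks are joined. With peaks within 1000 bp joined in each list, the ranks of UBASH3B, UHRF1 and PCLO in REH were 3, 2 and 5. In joins added after the data were seen, they were 3, 4 and 24 within 3000 bp and 8, 7 and 68 within 5000 bp. In 697, the longest peak had 26093 bp and rank 11 in the UHRF1 window and 22398 bp and rank 22 in the UBASH3B window, and the PCLO window held no peak. With peaks joined within 1000, 3000 and 5000 bp, the 697 ranks were 5, 44 and 129 for UHRF1. For UBASH3B they were 56, 29 and 19.

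**Figure D1:**
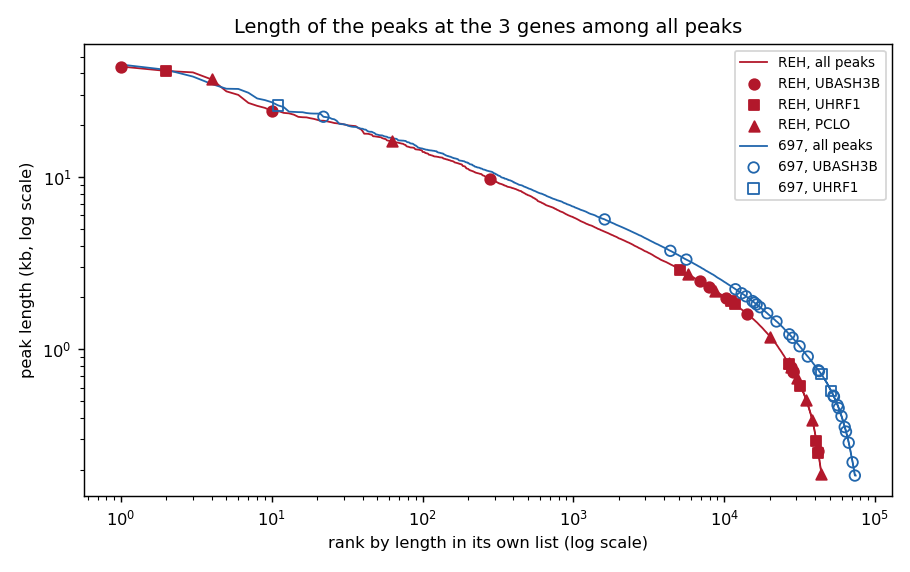
Length of each peak (kb, log scale) against its rank by length in its own list (log scale), with lines for all REH and all 697 peaks and symbols for the peaks in the 3 windows, filled for REH and open for 697. REH peaks of the genes hold ranks 1, 2, 4, 10 and 63 at the left end of the curve, while the 697 peaks begin at ranks 11 and 22 and none belongs to PCLO.

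The windows gave 3 different patterns between the cell lines. UBASH3B was covered by peaks in both, in long runs in REH and in many pieces in 697. UHRF1 had a long peak over its 5′ end in both, which ran further into the gene in REH. PCLO had long peaks in REH alone, deep inside the gene. The covered bases summed to 200710 bp in REH and 82198 bp in 697 over the 3 windows, which was 0.295% and 0.0810% of all bases under peaks in each list. The windows were chosen for long REH peaks, so the higher REH sum is not independent of the choice. Over the whole lists, peaks covered 67.9 Mb in REH and 101.5 Mb in 697.

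**Figure D2:**
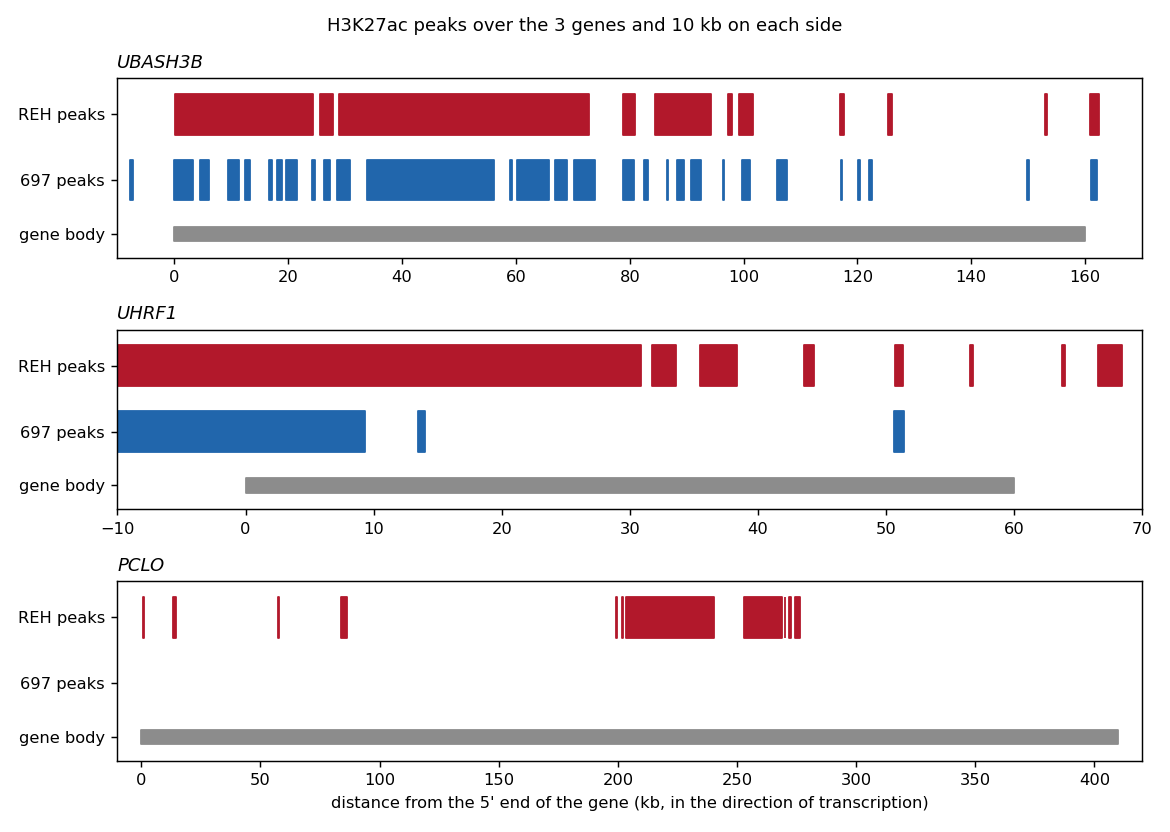
Position of every REH peak (red) and 697 peak (blue) relative to the 5′ end of each gene (kb, in the direction of transcription), with the gene body in grey and 10 kb on each side, 1 library per cell line. The 29 peaks of 697 at UBASH3B are spread along nearly the same stretch as 11 REH peaks but cover less of it, 61554 against 88731 bp. The long 697 peak at UHRF1 stops at 9.35 kb where the REH peak runs to 30.9 kb, and the 697 row of PCLO is empty.

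The UBASH3B window (chromosome 11, 122516000 to 122696000) had 11 REH peaks over 88731 bp, 49.3% of the window. In 697 it had 29 peaks over 61554 bp, 34.2% of the window. The ratio of covered bases, REH over 697, was 1.44. Of the 11496 windows of 180 kb across the genome that held any peak, 22% had at least 2 times the covered bases in REH, and the UBASH3B window was not among those. As many covered bases as in this window were found in 3 of these windows in REH, a value that the choice of the gene used, and in 88 of them in 697, where the list played no part in the choice. The median window had 3099 bp in REH and 4112 bp in 697.

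The longest REH peak ran from 122554923 to 122598762, between 28.9 and 72.8 kb after the 5′ end. In 697, 6 peaks lay over it and covered 80.0% of its bases, the longest of them the peak of 22398 bp from 33.8 to 56.2 kb, which lay wholly inside the REH peak. The gaps between these 6 peaks were 758 to 2949 bp. The REH peak of rank 10 began in the same kb as the 5′ end, at 122526101, and ended at 122550318. Here 697 had 8 peaks, the longest 3318 bp, over 44.7% of the bases. A REH peak of 9768 bp from 84.5 to 94.3 kb had 3 peaks of 697 over 34.1% of its bases. Of the 29 peaks of 697 in the window, 7 had no REH peak over them, against 61.1% of all 697 peaks, and 17 lay wholly inside a REH peak. This count is not independent of the choice of the gene by its long REH peaks. Among the 11 REH peaks, those without overlap with 697 numbered 3, of 257, 742 and 745 bp, against 35.9% of all REH peaks. Of the bases covered in 697, 89.4% were also covered in REH, and of those covered in REH, 62.0% were also covered in 697.

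The comparison at UBASH3B held when peaks within 1000 bp were joined, with 43840 bp in REH and 22398 bp in 697 for the longest and a ratio of covered bases of 1.39, and the ratio was 1.92 with a false discovery rate (FDR) of at most 5% by the deposited q-values. At this FDR, 17 of the 29 peaks of 697 remained, and they covered 68.9% of the longest REH peak, against 80.0% as deposited. The longest 697 peak was kept, with a fold enrichment of 1.31 and a −log10 q-value of 1.37. Wider joining changed the comparison. When peaks of a cell line within 3000 bp of each other were joined, a setting added after the data were seen, the longest stretch was 72662 bp in REH and 57193 bp in 697, with 95134 and 88414 bp covered. When peaks within 5000 bp were joined, also added later, the order turned, to 72662 bp in REH against 107819 bp in 697, and the ratio of covered bases was 0.858. The sum of the bases as deposited was higher in REH, and the extent of the joined stretch depended on the joining distance.

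Along UBASH3B, peaks covered 99.5% of the first 20 kb after the 5′ end in REH and 45.7% in 697. Between 40 and 60 kb the values were 100% and 82.6%, and between 80 and 100 kb they were 61.3% and 27.2%. From 100 kb on, the cell lines had similar low values, with 12.0% in REH and 15.3% in 697 between 100 and 120 kb, and 1.29% and 2.05% in the last 20 kb. In both cell lines the 5′ 50% of the gene body held most of the covered bases, 82.0% in REH and 83.7% in 697. In GENCODE v44 on GRCh38, UBASH3B (ENSG00000154127) has 14 exons in its representative transcript, and the first intron reaches from 0.488 to 120 kb after the 5′ end. By this distance, without any conversion between builds, the longest REH peak and the longest 697 peak lay within the first intron, at least 28.4 kb from the nearest exon edge.

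The UHRF1 window (chromosome 19, 4893000 to 4973000) had 8 REH peaks over 49464 bp, 61.8% of the window, and 3 peaks of 697 over 20644 bp, 25.8% of the window. The ratio of covered bases was 2.40. At least 2 times the covered bases in REH were found in 22.2% of the 20683 windows of 80 kb with a peak in either cell line, so this direction is common, and the REH value was used to choose the gene. In REH, 11 of these windows had as many covered bases, and in 697, 809 had as many as the 697 value, which is 3.91%. The ratio depends on the flank. It was 3.51 over the gene body alone and 1.38 with 50 kb on each side, where it was below 2.

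At the 5′ end of UHRF1 the cell lines shared a long peak. The REH peak ran from 4892527 to 4933855, from 10.5 kb before to 30.9 kb after the 5′ end. The 697 peak of 26093 bp ran from 4886261 to 4912353, from 16.7 kb before to 9.35 kb after it. REH peaks covered 86.4% of this 697 peak, while 697 peaks covered 49.4% of the REH peak. Of the bases covered in 697 in the window, 99.5% were also covered in REH, against 41.5% the other way. The long peaks therefore differed at both ends: the 697 peak began further upstream and the long REH peak ended further downstream. REH was not without peaks upstream, since 3 REH peaks lay over the 697 peak, the long one and shorter ones before its start. When peaks within 1000 bp were joined, the stretches were 44113 bp in REH and 42997 bp in 697 and so nearly equal in length, because the 697 peak was joined with further peaks upstream of the window.

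Inside UHRF1, the REH peaks covered more of the gene. In the first 20 kb after the 5′ end, peaks covered 100% of the bases in REH and 49.6% in 697. Between 20 and 40 kb, they covered 78.3% in REH and 0% in 697. After the long REH peak followed REH peaks of 1897 bp from 31.7 to 33.6 kb and of 2904 bp from 35.5 to 38.4 kb, with no 697 peak over either. Between 4917034 and 4953670, 36.6 kb held no 697 peak and had 4 REH peaks over 22442 bp. Of all 74480 stretches between neighbouring 697 peaks, 23 had as many bases under REH peaks, this one included. Part of these bases belong to the REH peak that chose the gene, so this count is a description only. Toward the 3′ end both cell lines had a short peak at the same place, 616 bp in REH from 50.7 kb and 717 bp in 697. In GENCODE v44, the representative transcript of UHRF1 (ENSG00000276043) has 17 exons and starts 6.42 kb after the 5′ end of the gene, its exon 2 ends at 7.96 kb, exon 3 starts at 26.1 kb, exon 5 ends at 29.9 kb and exon 6 starts at 38.4 kb. By distance, the 697 peak ended in the second intron. The REH peak reached across that intron to the neighbourhood of exon 5, and the difference of 1 kb between the end of exon 5 and the end of the peak is too small to say whether it ended past the exon.

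Other genes lie close to UHRF1, so that not every peak of the window can be ascribed to it. In RefSeq on GRCh38, ARRDC5, which encodes an arrestin domain protein and is transcribed in the opposite direction, overlaps the 5′ part of the UHRF1 gene, the microRNA gene MIR4747 lies inside UHRF1, and KDM4B, which encodes a histone lysine demethylase, begins 66.0 kb after the left end of UHRF1. The upstream parts of both long peaks lay toward ARRDC5. A REH peak of 1828 bp from 66.6 to 68.4 kb lay near the 5′ end of KDM4B by this distance, and no 697 peak was called there. The other windows also hold further RefSeq genes. The small nucleolar RNA gene LOC124902828 overlaps UBASH3B 70.5 kb after its left end, within the longest REH peak by this distance. The pseudogene RNA5SP235 overlaps PCLO, and the long non-coding RNA gene LOC105375377 lies in the flank of PCLO.

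The PCLO window (chromosome 7, 82373000 to 82803000) had 11 REH peaks over 62515 bp, 14.5% of the window, and 0 peaks in 697. A window of this width, 430 kb, with at least 2 times the covered bases in REH was found in 20.1% of the 5694 windows with a peak in either cell line. Windows with REH peaks and no 697 peak made up 10.3% of them. In REH, 91 windows of this width had as many covered bases, 1.60% of all. The REH value was used to choose the gene, so this count is a description only. The window lies in a stretch of 1298 kb, from 82308991 to 83607217, without a 697 peak. REH had 12 peaks over 64310 bp in it. Among the 254 stretches between 697 peaks that were at least as long, the median had 2220 bp under REH peaks, and none other had as many as this one. Nor did any other of the 74480 stretches of any length. The REH peaks of PCLO were chosen for their length, so this order describes the stretch and is not independent of the choice. Around the window, 697 had 4 peaks in the 500 kb to the left and 0 in the 500 kb to the right, and REH had 8 and 0. In the 500 kb to the left and to the right of UHRF1, peaks covered 47780 and 8477 bp in REH and 81153 and 14937 bp in 697. Beside UBASH3B the values were 4708 and 26306 bp in REH and 874 and 29121 bp in 697.

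**Figure D3:**
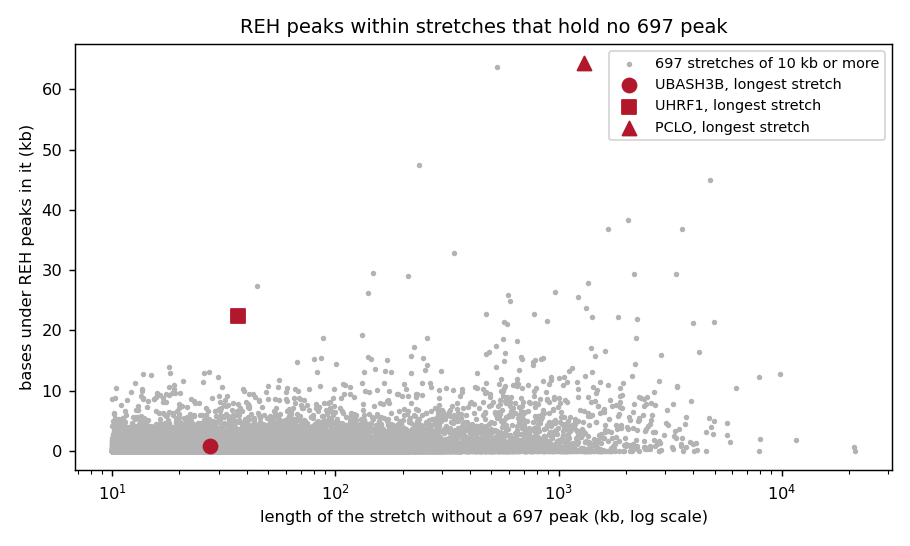
Bases under REH peaks (kb) against the length of each stretch between neighbouring 697 peaks (kb, log scale) for all stretches of 10 kb or more (grey), with the longest stretch that touches each window in red. The PCLO stretch of 1298 kb is the highest point at 64310 bp, the UHRF1 stretch of 36.6 kb lies at 22442 bp and the UBASH3B stretch of 27.3 kb at 745 bp.

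The REH peaks of PCLO lay in the inner part of the gene. The peak of 36872 bp ran from 82552534 to 82589405, which is 204 to 240 kb after the 5′ end, since PCLO is transcribed from the minus strand. The peak of 16144 bp ran from 82523957 to 82540100, 253 to 269 kb after it. Between 200 and 280 kb after the 5′ end, the covered percent in steps of 20 kb was 85.4%, 100%, 37.8% and 61.1%. From 280 kb to the 3′ end, 0% was covered. At the 5′ end there was a single REH peak of 831 bp, between 0.513 and 1.34 kb after it, and peaks of 1182, 391 and 2734 bp followed at 13.2, 57.4 and 83.8 kb. The peak at the 5′ end was weak, with a fold enrichment of 1.07 and a −log10 q-value of 0.695. It was lost with an FDR of at most 5%, as were the peaks of 1182 and 391 bp, and 8 of the 11 REH peaks remained. Of the covered bases in the gene body, 12.4% lay in its 5′ 50%, against 82.0% at UBASH3B and 80.2% at UHRF1 in REH. In GENCODE v44, the representative transcript of PCLO (ENSG00000186472) has 25 exons. By distance from the 5′ end, the peak of 36872 bp spanned exons 5 and 6, which together hold 7095 bp, and ended in the sixth intron. The nearest exon edge to either end of this peak was 2.40 kb away, before the start of exon 5. The peak of 16144 bp spanned exons 8 and 9 by distance, with one end 1.02 kb before the start of exon 8. This margin is close to the precision of 1 kb, so it is not certain that the peak includes exon 8.

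Among the 100 longest REH peaks, 697 peaks covered a median of 74.3% of the bases (middle 50% of the peaks, 50.4% to 89.0%), and among all REH peaks a median of 57.8%. No 697 peak lay over 6 of the 100 longest REH peaks, against 35.9% of all REH peaks, most of which are far shorter, and 2 of these 6 were the long peaks of PCLO. The longest peak of UBASH3B, with 80.0%, was above the median of the 100 longest, and that of UHRF1, with 49.4%, stood at place 24 from the lowest. The peak of rank 10 in UBASH3B stood at place 21 and had 8 peaks of 697 over it, more than any other of the 100 longest REH peaks. Rank 3, outside these genes, had 96.5% of its bases under 697 peaks and met a 697 peak of 38333 bp that also had rank 3 in its own list.

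**Figure D4:**
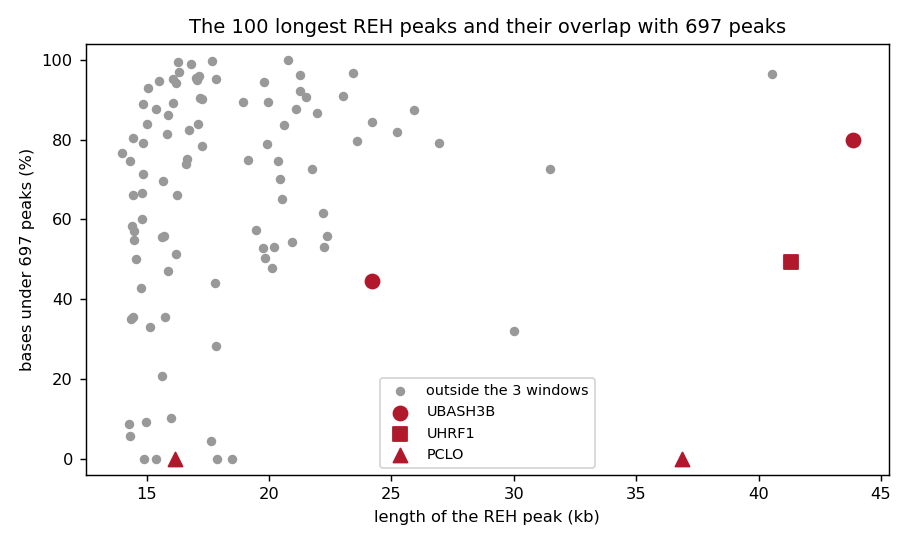
Percent of the bases of each of the 100 longest REH peaks that lay under 697 peaks, against the length of the REH peak (kb), with the peaks of the 3 windows in red and the others in grey. The 2 PCLO peaks lie at 0%, UHRF1 at 49.4% and the UBASH3B peaks at 80.0% and 44.7%.

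The deposited height of the longest peaks, a mean over the whole peak, was not extreme for their list. Most peaks of the lists are far shorter, so these means are taken over unlike lengths. The mean fold enrichment over the local background was 1.83 for the longest UBASH3B peak in REH, 1.71 for that of UHRF1 and 1.72 for that of PCLO, at percentiles 65.1, 58.4 and 59.1 of all REH peaks. In 697, the longest peak of UBASH3B had 1.31 and that of UHRF1 had 1.42, at percentiles 33.5 and 50.9. The heights were not compared between the cell lines, since pileup values of 24932 peak pairs shared by the lists had a Spearman correlation of 0.025. The lengths of the same pairs had 0.473, and no such value is given for fold enrichment. Both values are descriptions across peaks that are not independent.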

How the data were processed

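H3K27ac ChIP-seq was done on 1 library of REH and 1 of 697 with input DNA of each as control. Reads were aligned by the authors to hg19 using Bowtie (Bowtie2 in the submitters' processing notes), and they called broad peaks per cell line against its input with MACS 2.1.0.20150731, per the file headers, keeping 1 tag per position, with q-value cutoffs of 0.05 and 0.1. The paper's methods give an earlier MACS release, and the header was followed. The deposited values are peak position and length, mean pileup signal, fold enrichment as a linear ratio, and p-value and q-value as −log10. The lists hold no tags per peak, so no counting interval is given.

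Peaks overlapping a window by 1 bp or more were counted, and bases were clipped to the window. Windows of equal width were laid end to end over each chromosome as background. The gene ends are the rounded hg19 values of the rule, and exons come from GENCODE v44 on GRCh38 by distance from the 5′ end, without conversion. Genes named are the 3 members and neighbours in RefSeq, and peaks named are the longest per window and those of at least 5 kb, beside shorter peaks named after their values were seen. The genes, windows and lists were chosen with earlier results of these data known. Lineage markers were not placed, since the annotation used here is on another build. Scripts were checked on simulated peaks, with matplotlib 3.10.9, scipy 1.17.1, pandas 2.3.3, numpy 2.4.6 and Python 3.11.15.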

Additional observations from a re-analysis of the deposited data

How the results depend on the processing

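Alternatives were an FDR of at most 5%, joining of peaks within 1000 bp, other flanks, counting a peak only with at least 50% of it in the window, and equal peak numbers by length. Joining within 3000 and 5000 bp was added after the data were seen. A value counted as moved when it changed by more than 1.5 times, as did 8 of 126 values under the former and 17 of 48 under the latter. Both totals include values that could not move, such as those of 697 at PCLO. With equal peak numbers, the shorter REH list kept all its peaks, so the REH window values of that setting could not move either. The 0 values of 697 at PCLO stayed at 0 under all settings, but no setting could have changed them. The filters only remove peaks, and the 697 stretch without a peak reaches beyond the 50 kb flank and every joining distance.

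With an FDR of at most 5%, 697 kept 17 peaks at UBASH3B, and 33.7% of windows of the UHRF1 width had at least 2 times the covered bases in REH. With equal peak numbers 19 peaks of 697 remained at UBASH3B. Joining within 1000 bp made the longest 697 stretch at UHRF1 42997 bp. Without the flank, 697 peaks covered 10644 bp at UHRF1, and with 50 kb they covered 49618 bp with 11 peaks in 697 and 15 in REH. Joining within 3000 bp left 7 REH and 12 697 peaks at UBASH3B, 5 REH peaks at UHRF1 and 6 at PCLO, and gave longest stretches of 72662 bp in REH and 57193 bp in 697 at UBASH3B and of 68879 bp in REH and 53007 bp in 697 at UHRF1. Joining within 5000 bp left 6 REH and 5 697 peaks at UBASH3B, 5 REH peaks at UHRF1 and 6 at PCLO, gave longest stretches of 72662 bp in REH and 107819 bp in 697 at UBASH3B and of 74831 bp in REH and 57687 bp in 697 at UHRF1, and covered 115148 bp at UBASH3B in 697. Joined stretches are longer and fewer by construction, and the cause of the other changes was not tested. With an FDR of at most 5%, the only REH peak at the 5′ end of PCLO was lost. The FDR setting rests on deposited q-values. No paired analysis was possible because each cell line has 1 library. What the depth of the libraries limits was not tested, since the lists hold no reads.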
